A study of Homo sapiens with 4 samples.

Results

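The factors that transcribe replication-dependent histone genes and cut the ends of their mRNAs were examined in HaCaT cells after knockdown of ALKBH5. The group held 10 genes of the 58735 listed, chosen by name for their known role: NPAT and CASP8AP2 (transcription), SLBP and ERI1 (binding and trimming of the stem-loop), LSM10 and LSM11 (the U7 particle), and CPSF2, CPSF3, SYMPK and CSTF2 (cleavage). The choice was made with earlier results of these data known. All 10 were found in the files, and 10 of 10 passed the filter on low counts that left 15075 genes for testing.

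HaCaT is an established line of human keratinocytes. The cells were transfected by lipofectamine either with a negative control siRNA (siControl) or with an siRNA against ALKBH5 (siALKBH5), the demethylase that removes m6A from RNA, and poly-A RNA was sequenced from 2 libraries in each group. Both groups thus went through transfection, with 200 pmol of siRNA for every library, and the labels name no other difference between them. Which ALKBH5 siRNA was used is not given in the labels, nor is it stated that the duplicates were separate cultures, so the p-values below measure only the spread between these samples, which may be technical.

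Most mRNAs end in a poly-A tail, but the mRNAs of replication-dependent histones end in a conserved stem-loop. NPAT, a substrate of cyclin E and CDK2, gathers the histone locus body where these genes are transcribed in S phase. SLBP then holds the stem-loop, the U7 snRNP pairs with the RNA downstream of it, and a cleavage module that includes the nuclease CPSF3 cuts between them.

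The RNA parts of this machinery are shown first, because they define what SLBP and the U7 proteins bind. The letters GGCNCTTTTNAGNGCC, in which N is any base, were searched on the sense strand of the GENCODE 29 transcripts, and were found in 40 of 58676 genes (0.0682%). Of 90 genes named as replication-dependent histones, 34 held them in 5 forms. The capitals mark the whole 16-base stem-loop, given as DNA, with the form in most genes first.
Form in 18 histone genes: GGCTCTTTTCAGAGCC
Form in 5 histone genes: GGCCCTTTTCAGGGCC
Another form in 5 histone genes: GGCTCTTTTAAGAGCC
Form in 3 histone genes: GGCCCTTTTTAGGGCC
Another form in 3 histone genes: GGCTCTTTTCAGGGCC
In HIST1H2AC, the histone gene with these letters that had the most counts, the first form lay at chr6:26124669-26124684 on the plus strand (GRCh38), in the untranslated exonic sequence 43 bases past the stop codon. The annotated transcript ran on for 1114 bases after the stem-loop.

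The U7 snRNA, to which LSM10 and LSM11 bind, is encoded by RNU7-1 (chr12:6943816-6943878, plus strand, GRCh38). Its sequence is shown with the special Sm site in capitals, the stretch of 11 bases from base 21. Around this site closes a ring in which LSM10 and LSM11 take the place of some of the usual Sm proteins.
RNU7-1: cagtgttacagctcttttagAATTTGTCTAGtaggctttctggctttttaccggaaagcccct
RNU7-1 had 0 counts in all 4 libraries, where 3 counts would have been 0.161 to 0.186 CPM (counts scaled to a common library total). Its 63 bases lie almost wholly (98.4%) within an exon of C12orf57 on the same strand, and the RNA was selected by its poly-A tail, so a count of 0 says nothing on the level of U7.

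The promoter windows of 4 factors are shown because CPSF3 was the factor that passed the test, CASP8AP2 and CSTF2 share its letters for E2F, and NPAT has a divergent neighbour described below. Each holds 250 bases before the annotated start and 50 after it, in RefSeq's annotation of GRCh38.p14. Capitals mark the E2F letters TTTGGCGC, TTTGCCGC, TTTCGCGC and TTTCCCGC and the letters CCAAT, each searched on both strands, so that CCAAT on the other strand reads ATTGG.
CPSF3 (chr2:9423404-9423703, plus strand): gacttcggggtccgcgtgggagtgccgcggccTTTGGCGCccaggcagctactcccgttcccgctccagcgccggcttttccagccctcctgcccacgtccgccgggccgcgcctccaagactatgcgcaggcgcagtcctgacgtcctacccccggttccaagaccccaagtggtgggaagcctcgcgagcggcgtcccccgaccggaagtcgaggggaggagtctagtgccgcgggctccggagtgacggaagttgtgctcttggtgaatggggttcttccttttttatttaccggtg
CASP8AP2 (chr6:89829630-89829929, plus strand): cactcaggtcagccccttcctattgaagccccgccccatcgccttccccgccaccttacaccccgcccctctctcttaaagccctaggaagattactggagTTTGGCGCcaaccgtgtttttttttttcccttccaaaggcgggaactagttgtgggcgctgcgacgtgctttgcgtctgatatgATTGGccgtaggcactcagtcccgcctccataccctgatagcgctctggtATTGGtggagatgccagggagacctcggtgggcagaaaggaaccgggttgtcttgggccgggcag
CSTF2 (chrX:100820141-100820440, plus strand): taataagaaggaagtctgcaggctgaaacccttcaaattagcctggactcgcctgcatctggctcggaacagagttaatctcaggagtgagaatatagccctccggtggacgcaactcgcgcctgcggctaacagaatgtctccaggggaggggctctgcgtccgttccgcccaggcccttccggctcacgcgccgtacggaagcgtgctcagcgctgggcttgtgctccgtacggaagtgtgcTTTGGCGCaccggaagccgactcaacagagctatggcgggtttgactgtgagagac
NPAT (chr11:108222589-108222888, minus strand): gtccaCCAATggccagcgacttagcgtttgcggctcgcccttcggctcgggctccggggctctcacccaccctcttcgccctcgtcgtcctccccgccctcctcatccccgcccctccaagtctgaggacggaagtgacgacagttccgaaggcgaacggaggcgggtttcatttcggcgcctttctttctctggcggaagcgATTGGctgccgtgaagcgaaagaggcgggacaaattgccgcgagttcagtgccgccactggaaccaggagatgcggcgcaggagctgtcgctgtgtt
Of the 10 factors, 9 had a window in the table. The E2F letters were found in 3 of 9 windows, 218 bases before the start in CPSF3, 149 in CASP8AP2 and 6 in CSTF2, beside 3.31% of the 35116 windows of all genes. CCAAT was found in 4 of 9 windows (NPAT, CASP8AP2, LSM10 and CPSF2), beside 34.6% of all windows. These matches are descriptions of the sequence and not of binding.

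The 4 libraries held 16017502 to 18837807 counts on genes. ALKBH5 had 93.8 and 87.6 CPM in siControl and 51.2 and 49.6 CPM in siALKBH5, with no overlap between the groups. Its log2 fold change, here always siALKBH5 minus siControl, was -0.85 (SE 0.05, adjusted p = 6.4e-15 in edgeR's quasi-likelihood test with Benjamini-Hochberg adjustment, which is the test used throughout). Exons of ALKBH5 share 11.2% of their bases with an antisense gene. The 7 keratinocyte markers summed to 16591 and 16966 CPM in siControl and to 22518 and 22599 CPM in siALKBH5. Of these, KRT5 (log2 fold change 0.68), KRT6A (0.63), KRT14 (0.22) and PKP1 (0.18) rose, KRT17 (-0.08) and TP63 (-0.09) fell and DSG3 (-0.04) did not pass the test. The part of this in the results below was not tested. The 5 fibroblast, 4 melanocyte, 4 leukocyte and 3 endothelial markers summed to at most 21.1, 3.89, 4.23 and 35.5 CPM in any library. Of these, COL1A2, COL3A1, PDGFRA, DCT, TYR, PTPRC, LYZ and PECAM1 did not exceed 3 counts. Among the rest, VWF (log2 fold change 0.51) and CD14 (0.64) rose, and CDH5 (-0.69) and DCN (-1.25) fell. COL1A1 (-0.04) and PMEL (0.37) did not pass the test, and MLANA and CD3E were not tested.

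Of the 10 factors, CPSF3 rose and the other 9 did not pass the test. At an adjusted p under 0.05, 1 of 10 was called higher (19.3% of all tested genes were) and 0 of 10 were called lower (17.3% of all tested genes). In either direction 10% of the factors were called, beside 36.6% of all tested genes, and 0 of 10 also changed by 2-fold or more, beside 2.92%. At an unadjusted p under 0.05 there were 2, CPSF3 and NPAT. The median log2 fold change was 0.03 over the factors and -0.01 over all genes, and its median size was 0.08 and 0.20. The point estimates ran from -0.21 in NPAT to 0.24 in CPSF3, and the 95% intervals, which are not adjusted for the number of genes, reached no further than -0.39 and 0.46. The siControl and siALKBH5 libraries did not overlap in CPM in 6 of 10 factors, 3 in each direction, beside 66.3% of all tested genes. Fewer cells that express a gene and less RNA per cell cannot be told apart in these bulk libraries.

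**Figure D1:**
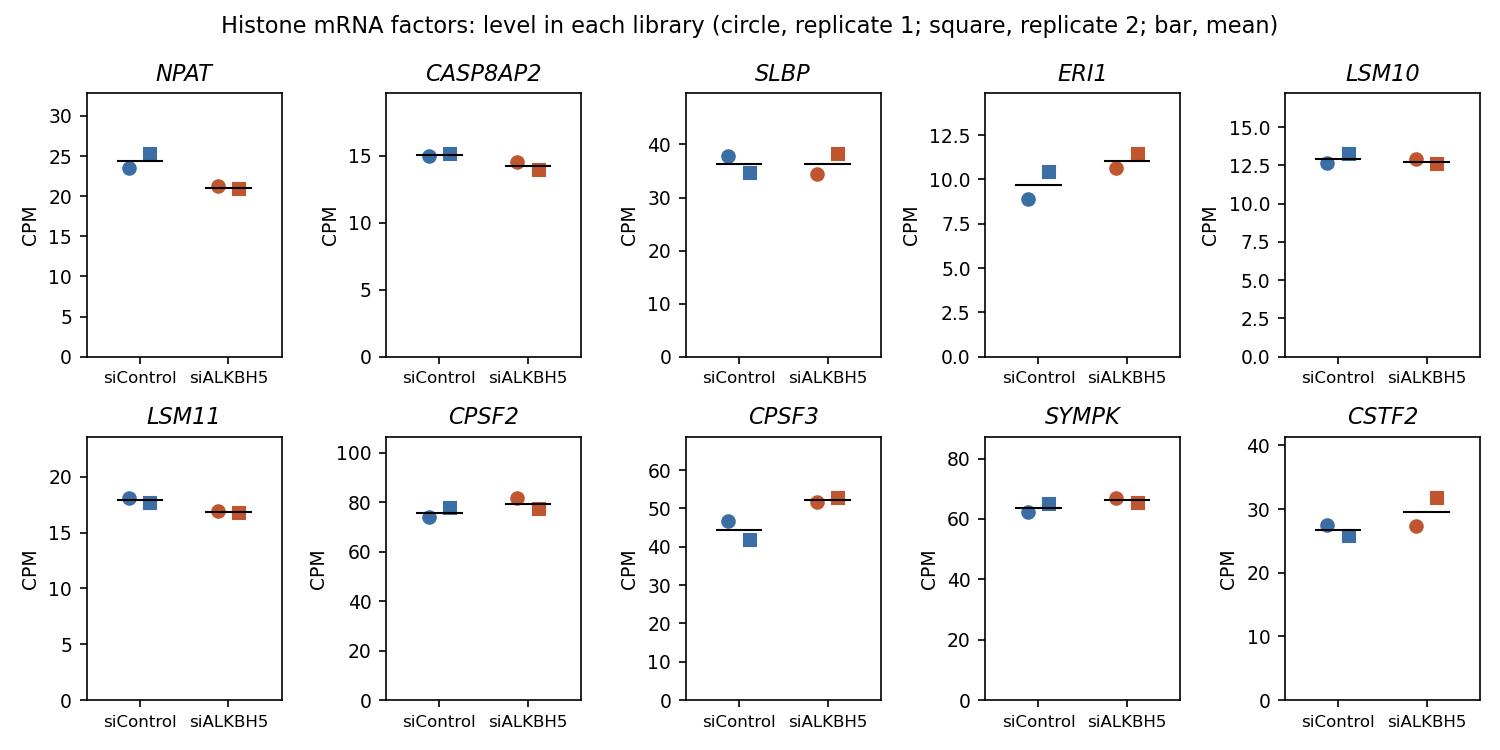
CPM of each factor (vertical axes, from 0) in the siControl and siALKBH5 libraries (horizontal axes), with circles for replicate 1, squares for replicate 2 and a bar for the group mean. CPSF3 sits at 41.9 and 46.8 CPM in siControl and at 51.6 and 52.8 CPM in siALKBH5, while the SLBP libraries of both groups lie between 34.5 and 38.2 CPM.

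The factors differed 11.0-fold in level when counts were divided by gene length, which covers all annotated exons and not the expressed transcript alone. In CPM the order was another. CPSF2 (13595 bases) had a mean of 75.8 CPM in siControl and 79.5 CPM in siALKBH5, above SLBP (2026 bases) with 36.2 and 36.3 CPM. The order and the ratios per kb therefore depend on these lengths. SLBP was highest, with 17.9 ± 0.97 CPM per kb (SD, n = 4 libraries). CSTF2 and CPSF3 followed at 12.9 and 12.8 CPM per kb and overlapped each other, ahead of LSM10 at 8.58 CPM per kb. The scaffold SYMPK and CPSF2 overlapped at 6.11 and 5.71 CPM per kb. NPAT stood at 3.01 CPM per kb and LSM11 at 2.64 CPM per kb, and their libraries did not overlap. CASP8AP2 and ERI1 were lowest and overlapped, at 1.79 and 1.62 CPM per kb. The proteins LSM10 and LSM11 sit together in one ring, and the level per kb of LSM10 was 3.07 and 3.29 times that of LSM11 in siControl and 3.35 and 3.30 times in siALKBH5.

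**Figure D2:**
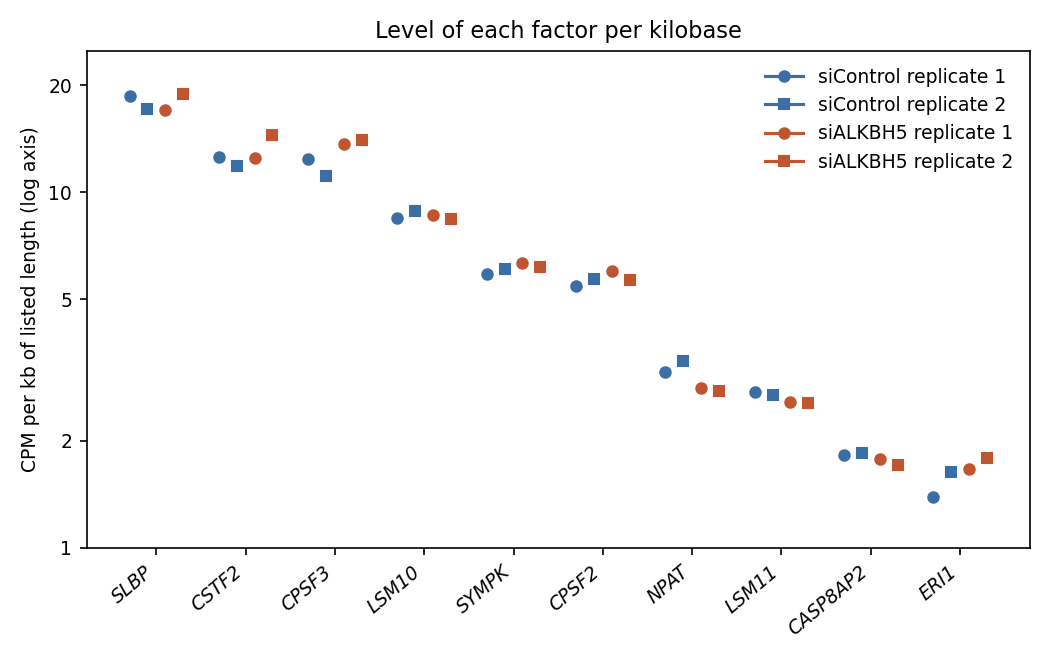
Level of each factor in CPM per kb of the listed gene length (vertical axis, logarithmic) in each library, with the factors in order of their mean (horizontal axis). SLBP lies between 17.0 and 18.8 and ERI1 between 1.39 and 1.79 CPM per kb.

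Among the cleavage factors, CPSF3 (ENSG00000119203, chr2:9423568-9473101, plus strand), the nuclease that cuts histone and polyadenylated pre-mRNAs alike, was counted 754 times in each siControl library, and 964 and 869 times in the siALKBH5 libraries. Scaled to library size these were 46.8 and 41.9 CPM against 51.6 and 52.8 CPM. Both siALKBH5 libraries lay above both siControl libraries. The mean rose to 118% of siControl, with a log2 fold change of 0.24 (SE 0.06, 95% interval 0.11 to 0.37, adjusted p = 0.0035). The call was lost without the second siControl library, where the log2 fold change was 0.16 (adjusted p = 0.14).

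CPSF2 (ENSG00000165934, chr14:92121937-92172145, plus strand), the inactive partner of CPSF3 in the cleavage module, had 74.0 and 77.6 CPM in siControl and 81.8 and 77.1 CPM in siALKBH5. The groups overlapped, and the log2 fold change was 0.07 (SE 0.05, 95% interval -0.03 to 0.17, adjusted p = 0.30), with 0.026 to 0.11 when 1 library was left out. Per kb, CPSF3 was 2.28 and 1.95 times CPSF2 in siControl and 2.28 and 2.47 times in siALKBH5, so this ratio overlapped between the groups too.

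SYMPK (ENSG00000125755, chr19:45815410-45863290, minus strand) encodes symplekin, the scaffold of the module. It had 62.4 and 64.8 CPM in siControl and 67.0 and 65.3 CPM in siALKBH5. Although no siALKBH5 library fell below a siControl library, the log2 fold change of 0.06 was close to its standard error (SE 0.05, 95% interval -0.05 to 0.16, adjusted p = 0.43). CSTF2 (ENSG00000101811, chrX:100820359-100840932, plus strand) encodes CstF-64, an RNA-binding subunit of the cleavage stimulation factor. It had 27.6 and 25.8 CPM in siControl and 27.3 and 31.8 CPM in siALKBH5, and the second siALKBH5 library alone stood above the rest. Its log2 fold change was 0.14 (SE 0.08, 95% interval -0.03 to 0.31, adjusted p = 0.19), with 0.25 (adjusted p = 0.041) without the first and 0.036 (adjusted p = 0.84) without the second siALKBH5 library.

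CSTF2T encodes a close paralog of CSTF2 without introns. It had 36.1 and 34.8 CPM in siControl and fell to 30.3 and 28.7 CPM in siALKBH5 (log2 fold change -0.27, SE 0.07, adjusted p = 0.0047). The level per kb of CSTF2 was 1.43 and 1.39 times that of CSTF2T in siControl and 1.69 and 2.08 times in siALKBH5, with no overlap between the groups and no test of the ratio. How reads that match both genes were counted is not given in the sources used here, so their split is uncertain.

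NPAT and CASP8AP2, grouped here under transcription, had lower point estimates, and neither passed the test. NPAT (ENSG00000149308, chr11:108157215-108222642, minus strand) was counted 379 and 454 times in the siControl libraries and 397 and 343 times in the siALKBH5 libraries, or 23.5 and 25.2 CPM against 21.3 and 20.8 CPM. Both siALKBH5 libraries lay below both siControl libraries, at 86.3% of the siControl mean. The log2 fold change was -0.21 (SE 0.09, 95% interval -0.39 to -0.03), with an unadjusted p of 0.021 and an adjusted p of 0.057. The call depended on the fit: scaling by library size only (-0.24, adjusted p = 0.036) and a block for the replicate (adjusted p = 0.048) passed, whereas DESeq2 (adjusted p = 0.23), no filter (adjusted p = 0.13) and the fits without 1 library (-0.26 to -0.16, adjusted p = 0.072 to 0.33) did not.

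CASP8AP2 (ENSG00000118412, chr6:89829894-89874436, plus strand) encodes FLASH, which joins NPAT in the histone locus body and binds LSM11. It had 15.0 and 15.1 CPM in siControl and 14.5 and 14.0 CPM in siALKBH5. The groups did not overlap, but the log2 fold change of -0.08 was smaller than its standard error (SE 0.11, 95% interval -0.30 to 0.15, adjusted p = 0.63). NPAT was 1.71 and 1.81 times CASP8AP2 per kb in siControl and 1.59 and 1.62 times in siALKBH5, a ratio that was not tested.

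The start of NPAT faces that of ATM, the kinase of the DNA damage response, and the annotated genes overlap by 159 bases, of which 143 are exonic in both (1.9% of the NPAT exons). ATM had 65.8 and 61.3 CPM in siControl and 57.1 and 56.6 CPM in siALKBH5. Its log2 fold change was -0.16 (SE 0.06, adjusted p = 0.024), and DESeq2 gave an adjusted p of 0.14. Leaving out the first siControl library, or the first or the second siALKBH5 library, also ended the call (log2 fold change -0.11, -0.16 and -0.15). The level per kb of NPAT was 1.14 and 1.31 times that of ATM in siControl and 1.18 and 1.17 times in siALKBH5, which overlapped. Whether the counting used strand is not given in the sources used here, and without strand reads in the shared bases cannot be told apart, nor can the 41 exonic bases that SYMPK shares with an antisense gene.

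**Figure D3:**
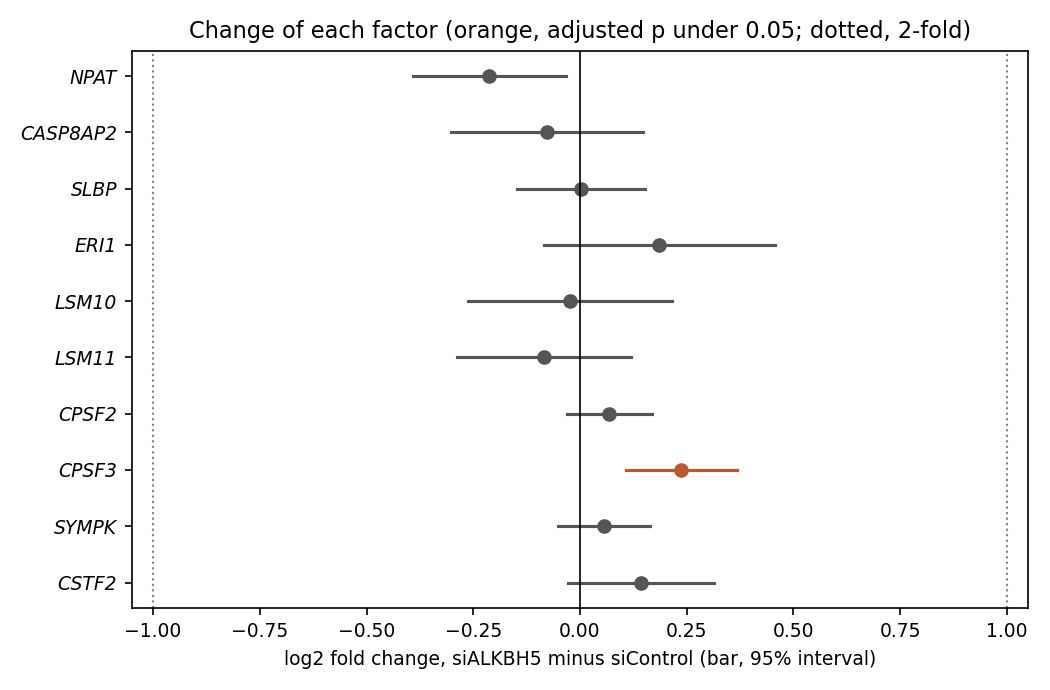
Log2 fold change of each factor, siALKBH5 minus siControl (horizontal axis), with its 95% interval as a bar, orange where the adjusted p was under 0.05, and dotted lines at a 2-fold change. CPSF3 alone is orange at 0.24, and all intervals lie between -0.39 and 0.46.

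SLBP (ENSG00000163950, chr4:1692800-1712555, minus strand), the stem-loop binding protein, had 37.8 and 34.7 CPM in siControl and 34.5 and 38.2 CPM in siALKBH5. The highest and the lowest library were both of siALKBH5. At 100.2% of the siControl mean, its log2 fold change was 0.00 (SE 0.07, adjusted p = 0.98), and the 95% interval ran from 90.3% to 111% of siControl. ERI1 (ENSG00000104626, chr8:9002147-9116746, plus strand), the exonuclease that trims the stem-loop end, was the factor with the fewest counts per library, 143 and 188 in siControl and 199 and 188 in siALKBH5. It had 8.88 and 10.4 CPM in siControl and 10.7 and 11.4 CPM in siALKBH5, without overlap. The log2 fold change was 0.19 (SE 0.13, 95% interval -0.08 to 0.46, adjusted p = 0.29), the widest interval of the 10, and was 0.080 without the first and 0.31 without the second siControl library.

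Neither of the proteins particular to the U7 ring passed the test. LSM10 (ENSG00000181817, chr1:36391238-36397892, minus strand) had 12.7 and 13.2 CPM in siControl and 12.9 and 12.6 CPM in siALKBH5, which overlapped (log2 fold change -0.02, SE 0.12, 95% interval 83.4% to 116% of siControl, adjusted p = 0.91). LSM11 (ENSG00000155858, chr5:157743695-157760709, plus strand) had 18.1 and 17.7 CPM in siControl and 17.0 and 16.8 CPM in siALKBH5, each lower than either siControl library (log2 fold change -0.08, SE 0.10, 95% interval 81.9% to 109% of siControl, adjusted p = 0.55).

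The genes that work with these factors were read from lists chosen by role. Earlier results of these data were known at that choice, so the shares called are descriptions and not independent evidence. Of 52 such genes 51 were tested, and 16 rose, 13 fell and 22 did not pass the test. This is 56.9% called, beside the 36.6% of all tested genes, and their median log2 fold change was 0.00. Its median size was 0.17, beside 0.20 over all tested genes, and 0 were called with a 2-fold change, beside 2.92%. Among 18 other genes of cleavage and polyadenylation, 2 rose, 7 fell and 9 did not pass (50% called, median -0.11). CPSF1, the largest subunit of the cleavage and polyadenylation factor, rose (log2 fold change 0.23, SE 0.04, adjusted p = 4.8e-05), as did the phosphatase SSU72 (log2 fold change 0.22, SE 0.04, adjusted p = 6.3e-05). PABPN1, the nuclear poly-A binding protein, fell (log2 fold change -0.37, SE 0.07, adjusted p = 5.5e-05), as did CSTF2T above, and PABPN1 shares 16.8% of its exonic bases with a read-through gene.

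In the U7 list, 3 of 6 tested genes rose, 1 fell and 2 did not pass (66.7% called, beside 36.6% of all tested genes). The Sm proteins that LSM10 and LSM11 join in the ring also serve the spliceosome. SNRPB, which shares 20% of its exonic bases with an overlapping gene, had 123 and 122 CPM in siControl and 161 and 145 CPM in siALKBH5 (log2 fold change 0.32, SE 0.04, adjusted p = 1.5e-07). SNRPG rose by 0.35 on the log2 scale (SE 0.07, adjusted p = 0.00015) and SNRPE fell by 0.20 (SE 0.07, adjusted p = 0.020), a call that was lost without the second siControl library (-0.17), without the second siALKBH5 library (-0.16) and in DESeq2 (-0.20). SNRPG and SNRPE have 20 and 9 listed pseudogene copies, which held 300.0 counts beside 2791 and 232 counts beside 2717 over the 4 libraries. ZNF473, the zinc finger protein that binds the U7 snRNP, had 14.3 and 13.5 CPM in siControl and 12.2 and 10.7 CPM in siALKBH5 (log2 fold change -0.27, SE 0.12, adjusted p = 0.078). Without the first siALKBH5 library its log2 fold change was -0.37 (adjusted p = 0.049), without the second -0.18 (adjusted p = 0.38), and DESeq2 gave an adjusted p of 0.26.

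The cap complex and NELF act on nascent transcripts and in histone mRNA processing. Of their 8 genes, 3 rose, 1 fell and 4 did not pass (50% called, beside 36.6% of all tested genes). NELFB rose (log2 fold change 0.20, SE 0.04, adjusted p = 3.8e-05). NELFE had a log2 fold change of 0.14 (SE 0.05, adjusted p = 0.022) and lost its call in DESeq2 (0.14), with library size only (0.11) and without the first siALKBH5 or the second siControl library (0.10 each). The cap-binding protein NCBP2 fell (log2 fold change -0.21, SE 0.05, adjusted p = 0.0025), but not without the second siControl library (-0.17, adjusted p = 0.054).

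The list for histone gene transcription and its cell cycle input included genes with larger point estimates than any factor. Of its 9 genes, 5 rose, 1 fell and 3 did not pass (66.7% called, beside 36.6% of all tested genes, median log2 fold change 0.43). Exons of CDK2, CCNE2, CCNA2 and CCNF share 14.5%, 37%, 9.08% and 8.35% of their bases with a gene on the opposite strand. Whether the counting used strand is not given in the sources used here. CDK2, the kinase that phosphorylates NPAT, had 23.4 and 20.1 CPM in siControl and 29.9 and 28.4 CPM in siALKBH5 (log2 fold change 0.43, SE 0.09, adjusted p = 0.00018). Its cyclin partners for this step, CCNE1 and CCNE2, were below 3 CPM in all 4 libraries and overlapped between the groups (log2 fold change 0.40 and 0.12, SE 0.41 and 0.27, adjusted p = 0.49 and 0.76). CCNA2, the cyclin of S phase and G2, rose from 53.6 and 57.4 to 98.1 and 98.1 CPM (log2 fold change 0.82, SE 0.05, adjusted p = 3.1e-15). CCNF, the F-box protein that directs SLBP to degradation in G2, rose from 29.5 and 28.8 to 52.6 and 50.9 CPM (log2 fold change 0.83, SE 0.07, adjusted p = 5.9e-12). SLBP mRNA stood at 100.2% of siControl as given above, and SLBP protein was not measured in these libraries. HINFP, which activates histone H4 genes with NPAT, had 45.0 and 47.4 CPM in siControl and 36.0 and 41.0 CPM in siALKBH5 (log2 fold change -0.27, SE 0.07, adjusted p = 0.0028). Without the first siALKBH5 library the log2 fold change of HINFP was -0.17 (adjusted p = 0.12).

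Of 10 genes of histone mRNA decay and translation, 3 rose, 3 fell and 4 did not pass (60% called, beside 36.6% of all tested genes). UPF1, the helicase recruited to histone mRNA at the end of S phase, rose by 0.13 on the log2 scale (SE 0.04, adjusted p = 0.0054), and MIF4GD, which binds SLBP and promotes translation, had a log2 fold change of 0.23 (SE 0.08, adjusted p = 0.019). The call of MIF4GD was lost in DESeq2 (0.24) and without any 1 of the 4 libraries (0.22 to 0.25). The decapping enzyme DCP2 fell by 0.38 (SE 0.07, adjusted p = 1.9e-05). The exonuclease XRN1 fell by 0.18 (SE 0.06, adjusted p = 0.016), which was lost in DESeq2 (-0.18) and without the first siALKBH5 (-0.13) or the second siControl library (-0.16).

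Genes of the transition from G1 to S phase are given beside the factors, since several of them, like histone supply, follow the cell cycle. This list too was chosen with earlier results of these data known. Of 14, 12 rose, 0 fell and 2 did not pass (85.7% called, beside the 36.6% of all tested genes), with a median log2 fold change of 0.77 and point estimates from 0.14 to 1.20. MCM7 of the replicative helicase rose from 81.0 and 79.9 to 138 and 140 CPM (log2 fold change 0.79, SE 0.04, adjusted p = 7.9e-17). Its exons share 8.94% of their bases with a gene on the opposite strand. CDC6, which loads that helicase, rose from 15.3 and 14.3 to 33.6 and 34.3 CPM (log2 fold change 1.20, SE 0.09, adjusted p = 3.5e-13). No factor of the 10 had a point estimate above 0.24. The difference between these lists was not tested. From separate assays, the paper reported that ALKBH5 knockdown left the proliferation of HaCaT cells unaltered. Those assays included a cell cycle analysis by flow cytometry, for which it reported no significant difference. Whether the changes in these genes go with a change in cycling was not tested in the cells of these libraries.

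**Figure D4:**
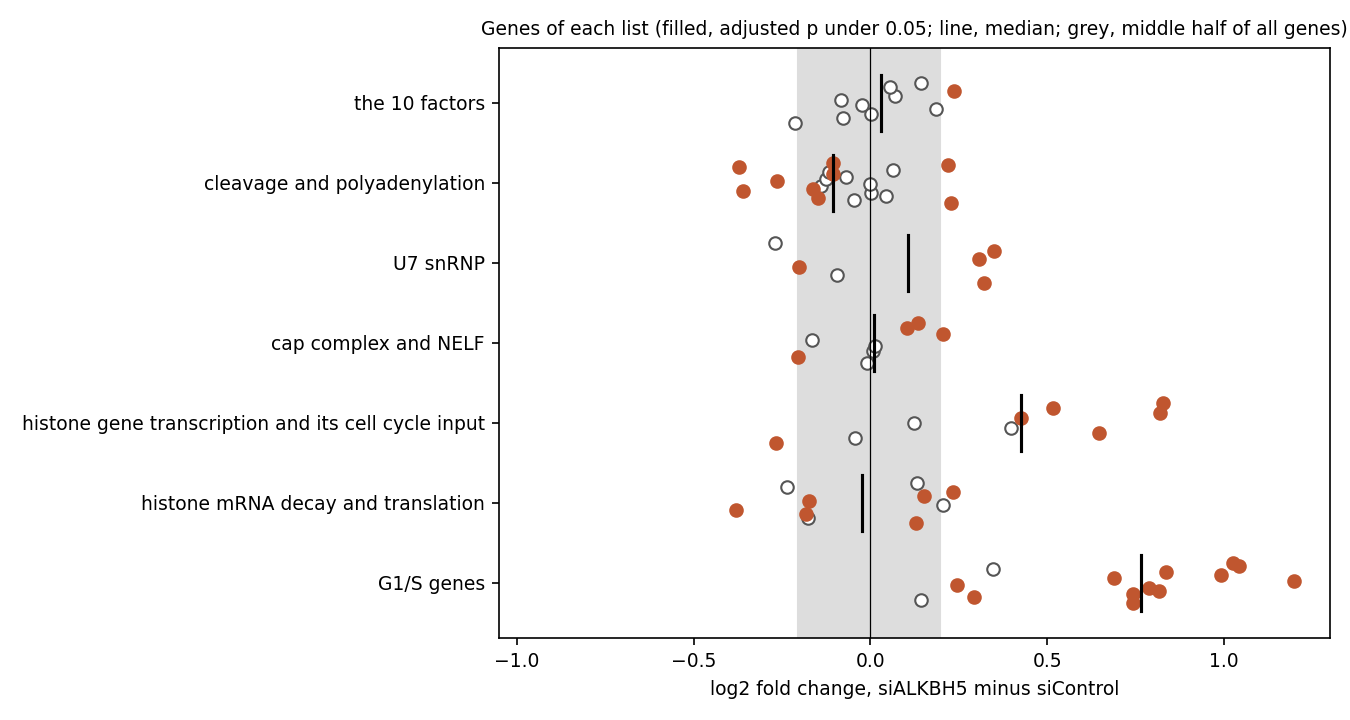
Log2 fold change, siALKBH5 minus siControl (horizontal axis), of the tested genes of each list (vertical axis), filled where the adjusted p was under 0.05, with a line at the median of each list and a grey band for the central 50% of all tested genes (-0.20 to 0.20). Of the 10 factors 1 is filled, at 0.24, and of the 14 G1/S genes 12 are filled, with a median of 0.77.

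The transcripts that the factors act on were summed for reference. The 34 histone genes with the stem-loop letters summed to 369 and 373 CPM in siControl and to 272 and 273 CPM in siALKBH5, which is 73.4% of siControl. The 56 histone gene names without them summed to 120.0 and 127 CPM in siControl and to 93.0 and 94.6 CPM in siALKBH5, or 76.1%. The latter lack only these exact letters in an annotated transcript. Of the 34 genes 25 passed the filter on low counts, and of the 56 names 7 did. Among the 34, HIST1H2AC, HIST3H2A and HIST1H2BD had the most counts, with 5876, 3854 and 3279 over the 4 libraries. The sums thus weigh a few transcripts most. SLBP stood at 100.2% in the same libraries. Since processed histone mRNAs carry no poly-A tail and the RNA was selected by that tail, the sums cover the part of these transcripts that was captured, and no test was made on them. Whether that part moved with the total histone mRNA was not tested.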

How the data were processed

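RNA was sequenced from 2 siControl and 2 siALKBH5 HaCaT libraries after poly-A selection. The authors deposited 1 table per replicate, each with raw counts per gene and FPKM of 1 siControl and 1 siALKBH5 library, the gene length, and their own 1 against 1 comparison (fold changes and p-values), which was not used. Since the deposited FPKM follow a library size set separately in each table, they entered no test. The submitters' processing notes name CASAVA, HISAT2 2.0.5, featureCounts 1.5.0-p3, DESeq2 1.20.0 and the build hg38, without giving the role of each. The identifiers and coordinates of 58724 of 58735 genes were identical in GENCODE 29. The number of columns left unmapped was 0.

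The raw counts of all 4 libraries (16017502 to 18837807 each) were fitted in edgeR 4.0.16 (R 4.3.3, limma 3.58.1) (filterByExpr, TMM normalization, glmQLFit, then glmQLFTest of siALKBH5 minus siControl) without covariates and with Benjamini-Hochberg adjustment over 15075 genes. Genes with an adjusted p under 0.05 were called. Standard errors and 95% intervals come from the same model. The common biological coefficient of variation was 0.0253. CPM are counts scaled to a common library total, and CPM per kb are divided by the deposited gene length. Counting floors (3 counts) cover counting error only. The duplicates differed by more than sampling noise (chi-square per degree of freedom 1.73 in siControl and 1.85 in siALKBH5), and each was counted as 1 sample. This difference cannot show that they were separate cultures, so the coefficient of variation above may be technical.

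The factors, partner genes and lists were chosen with earlier results of these data known. Named were the 10 factors, ALKBH5, 9 direct partners (ZNF473, RNU7-1, CSTF2T, HINFP, CCNE1, CCNE2, CDK2, CCNF and ATM) and, for each list, the 2 called genes with the smallest adjusted p in each direction. HIST1H2AC, HIST3H2A and HIST1H2BD were named after their counts were seen. Alternatives were DESeq2 1.42.0, the size factors of DESeq2, scaling by library size only, a block for the replicate number, the low-count filter removed or set to a mean of 10 counts, a 2-fold threshold, an adjusted p under 0.01, and each library left out in turn. The fits were tested on simulated data. Promoter sequences are from RefSeq (GRCh38.p14). Stem-loop and U7 sequences are from the GENCODE 29 transcripts.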

Additional observations from a re-analysis of the deposited data

How the results depend on the processing

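The number of factors called higher was 1, and leaving out each library in turn gave 0 to 2 (0 without the second siControl library, 2 without the first siALKBH5 library, where CSTF2 joined CPSF3). No factor reached the 2-fold threshold (0 higher). No factor was called lower, except that library size only gave 1, NPAT (-0.24), as did the block described below. Without 1 library, the log2 fold change was 0.16 to 0.32 for CPSF3, 0.036 to 0.25 for CSTF2, -0.067 to 0.078 for SLBP and -0.051 to 0.0091 for LSM10, 0.026 to 0.11 for CPSF2, 0.034 to 0.084 for SYMPK, 0.080 to 0.31 for ERI1, -0.26 to -0.16 for NPAT and -0.10 to -0.049 for CASP8AP2, and library size only gave -0.020 for SLBP. CCNE1 and CCNE2 reversed without the second siControl library (-0.023 and -0.092), with ranges without 1 library of -0.023 to 0.94 and -0.092 to 0.36. Over all genes, 2913 rose and 2610 fell. The 2-fold threshold gave 244 and 196, DESeq2 called 1431 lower, and an adjusted p under 0.01 left 1723 lower. Of the partner genes, 16 rose and 13 fell. The 2-fold threshold left 0 in each direction, DESeq2 and an adjusted p under 0.01 each called 5 lower, and leaving out 1 library gave 5 to 11 lower. The cause was not tested where a call changed with the tool or the scaling. Fits without 1 library have fewer samples and assume that the lone library varies like the other group.

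With the replicate number as a block, 1 factor was called lower, NPAT, at -0.21 (adjusted p = 0.048). The authors deposited and compared the libraries in these pairs, 1 table per replicate, but no source used here states a shared culture, batch or day. The correlation of the deviations of same-numbered libraries over tested genes was 0.0489, so the block was kept as an alternative.

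With 143 to 199 counts per library, ERI1 was measured least precisely, and changes smaller than the intervals given were not detectable at this depth.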
